A study of Mus musculus with 6 samples.

Results

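The transcripts described here are those of the NFAT transcription factors and of proteins that hold them outside the nucleus or return them to the cytoplasm. They were chosen by gene symbol, as every row of the expression table that the platform annotation assigns to exactly 1 of 10 symbols, and all 10 genes were measured, by 12 rows, among 19935 genes in all. They comprise the calcium-regulated factors Nfatc1, Nfatc2, Nfatc3 and Nfatc4, the tonicity-regulated factor Nfat5, the kinase genes Dyrk1a, Dyrk2, Gsk3b and Csnk1a1, and the scaffold gene Homer2. Dyrk1a and Homer2 had 2 rows each, which were averaged.

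Total RNA of 6 cultures of primary keratinocytes from wild type CD1 mice was hybridised as biotinylated cDNA, 1 array per culture. The 3 caNFATc1 cultures received a retrovirus with caNFATc1, a human NFATc1 whose mutated autoinhibitory domain leaves it constitutively active. The 3 vector control cultures received a retrovirus made from the empty MSCV vector, so retroviral infection and growth in low calcium medium were common to both groups. The transgene is of human sequence and is driven by the retrovirus, which limits what mouse probes can show of it. The comparison asks how the endogenous NFAT system differs when NFATc1 is active without upstream signalling.

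In resting cells NFAT factors are held in the cytoplasm with their serine-rich regulatory regions phosphorylated. A rise in calcium activates the phosphatase calcineurin, which removes these phosphates and lets the factors enter the nucleus, where they bind DNA at sites with the core GGAAA, often with AP-1 partners. The DYRK kinases prime the regulatory region, GSK3 and casein kinase 1 add further phosphates, and the factors are then exported. NFAT5 lacks the calcineurin docking region and responds to osmotic stress. In skin, NFATc1 is known for its role in the quiescence of hair follicle stem cells.

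Limma called 0 of the 10 members in the fit without pairing, where 0.216% of all genes were called. With the replicate number as a block it called 1 higher, Dyrk2, and 1 lower, Nfatc2, where 3.73% of all genes were called higher and 2.38% lower. The sequences upstream of these genes show where the NFAT core stands in them. Each is the 250 bases before an annotated transcription start, from RefSeq (build GRCm38.p6), written on the gene's strand, with every GGAAA on either strand in capitals (TTTCC where it lies on the opposite strand). The first Nfatc2 window lies at chr2:168601658-168601907 on the minus strand, before the outermost annotated start of the gene. The second lies at chr2:168590366-168590615 on the minus strand, before an inner start. The Dyrk2 window lies at chr10:118868904-118869153 on the minus strand, also before an inner start.
Nfatc2, outermost start: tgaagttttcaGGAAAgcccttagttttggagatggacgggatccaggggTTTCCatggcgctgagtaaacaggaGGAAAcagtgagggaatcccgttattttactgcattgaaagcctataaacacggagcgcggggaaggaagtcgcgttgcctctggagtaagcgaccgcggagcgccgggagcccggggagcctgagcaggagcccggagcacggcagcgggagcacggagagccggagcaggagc
Nfatc2, inner start: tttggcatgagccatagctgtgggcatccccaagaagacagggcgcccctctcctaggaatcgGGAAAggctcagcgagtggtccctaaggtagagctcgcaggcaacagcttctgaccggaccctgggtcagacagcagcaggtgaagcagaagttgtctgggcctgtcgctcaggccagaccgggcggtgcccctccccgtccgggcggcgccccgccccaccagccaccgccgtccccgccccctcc
Dyrk2, inner start: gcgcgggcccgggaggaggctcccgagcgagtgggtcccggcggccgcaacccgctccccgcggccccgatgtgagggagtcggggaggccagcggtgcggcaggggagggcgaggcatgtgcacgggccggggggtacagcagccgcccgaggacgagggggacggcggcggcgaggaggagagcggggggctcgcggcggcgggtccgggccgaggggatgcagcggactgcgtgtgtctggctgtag

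The outermost Nfatc2 window held 3 matches to the core and the inner window 1, while the Dyrk2 window held 0. Among the other members, the Nfatc4 window held 3 matches and the Nfat5 window 2, and the Gsk3b window held 0. In all, 8 of the 10 members had a window in the table, and 8 of their 13 windows held at least 1 match. Over all 32851 windows of the same length, 55.6% held at least 1 match and 6.39% held 3 or more. A match is a description of the letters, and binding was not measured. The Dyrk2 window had a G and C content of 78.8%, the outermost Nfatc2 window 59.6%, and the median over all windows was 52.4%.

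The deposited values are log2 values relative to each row's own median over the 6 arrays. They keep differences between arrays and not the brightness of a row, so the level of one gene cannot be set against that of another. Differences below are caNFATc1 minus vector control in log2 units, tested with limma and with p-values adjusted by the Benjamini-Hochberg method over all 19935 genes, with a threshold of 0.05. The fit without pairing, called unpaired, is given first. A second fit has the replicate number as a block, because same-numbered arrays deviated from their group means together. Values of that fit are marked as "with the block". The series design calls the replicates biological, without saying which cultures share a preparation, and p-values here reflect the scatter of these 6 samples. In bulk RNA, fewer cells of a type and less RNA per cell cannot be told apart.

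Same-numbered arrays resembled each other, and each replicate number stood apart in some genes. The keratinocyte marker Dsp lay at -2.58 and -2.78 in caNFATc1 and vector control replicate 3, and between -0.11 and 0.99 elsewhere. The marker Krt15 lay at -1.81 and -1.72 in caNFATc1 and vector control replicate 2, and between -0.04 and 1.04 elsewhere. In replicate 1 the X-inactivation RNA Xist lay at -6.05 in the caNFATc1 culture and -6.00 in the vector control culture, against values between -0.04 and 0.18 on the other arrays. The Y-linked gene Eif2s3y lay between 3.00 and 3.77 in replicate 1 of both groups, against -0.08 to 0.01 on the other arrays. Relative to those arrays, this is the pattern of male cells in replicate 1 of both groups. Among the members, Nfatc3, Gsk3b, Dyrk1a, Csnk1a1 and Homer2 also lay higher in replicate 1 than in replicates 2 and 3 of the same group, in both groups, and Nfatc1 and Nfatc2 lay lower. Since brightness is not kept, keratinocyte identity could not be checked from levels. Of 14 keratinocyte markers, 1 passed with the block, where 3.73% of all genes were called higher. It was Trp63, which encodes the p63 transcription factor of basal cells. Its log2 difference was 0.42 (n = 3 pairs, SE 0.08 and adjusted p 0.0444 with the block, 0.15 and 0.322 unpaired). Its call was lost with the block without replicate 1, 2 or 3 (adjusted p = 0.0807, 0.11 and 0.0562) and with all rows tested one by one (0.0742). The basal keratin gene Krt14 differed by -0.02 ± 0.07 (SE, unpaired). Of the 14 markers, 5 were positive and 9 negative, with a median difference of -0.03. The largest fall was that of Krt15, at -0.58, which passed neither fit (adjusted p 0.86 unpaired and 0.132 with the block).

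Fibroblasts are another cell type that primary skin cultures can hold. Of 12 fibroblast markers, 7 were positive and 5 negative, with a median difference of 0.06. The largest fall was that of Col6a3, at -0.25, which passed neither fit. The mean of 12 fibroblast markers lay at 0.02, 0.02 and 0.51 on the caNFATc1 arrays and between -0.07 and 0.06 on the vector control arrays. The highest mean was that of caNFATc1 replicate 3. The groups did not overlap for 2 of the 12, the collagen gene Col3a1, with pairs at 1.33, 0.62 and 1.67, and the growth factor receptor gene Pdgfra, with pairs at 0.37, 0.65 and 1.47, both with caNFATc1 above (9.64% of all genes). Of the 12, only Col3a1 passed with the block (1.20, SE 0.19 and adjusted p 0.0296 with the block, 0.23 and 0.108 unpaired). Its call was lost with the block without replicate 1 (adjusted p = 0.0862) and with all rows tested one by one (0.0633). Of 14 immune, 8 melanocyte and 8 endothelial markers, limma called 0 in either fit, and 0 of them had an unadjusted p under 0.05. Which markers are near zero cannot be read from row-centred values. Their part in the differences below was not tested. Without replicate 3 of both groups, the difference with the block was -0.74 for Nfatc2 and 0.67 for Dyrk2, and Col3a1 was still higher, by 0.97 (adjusted p = 0.0149 with the block).

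**Figure D1:**
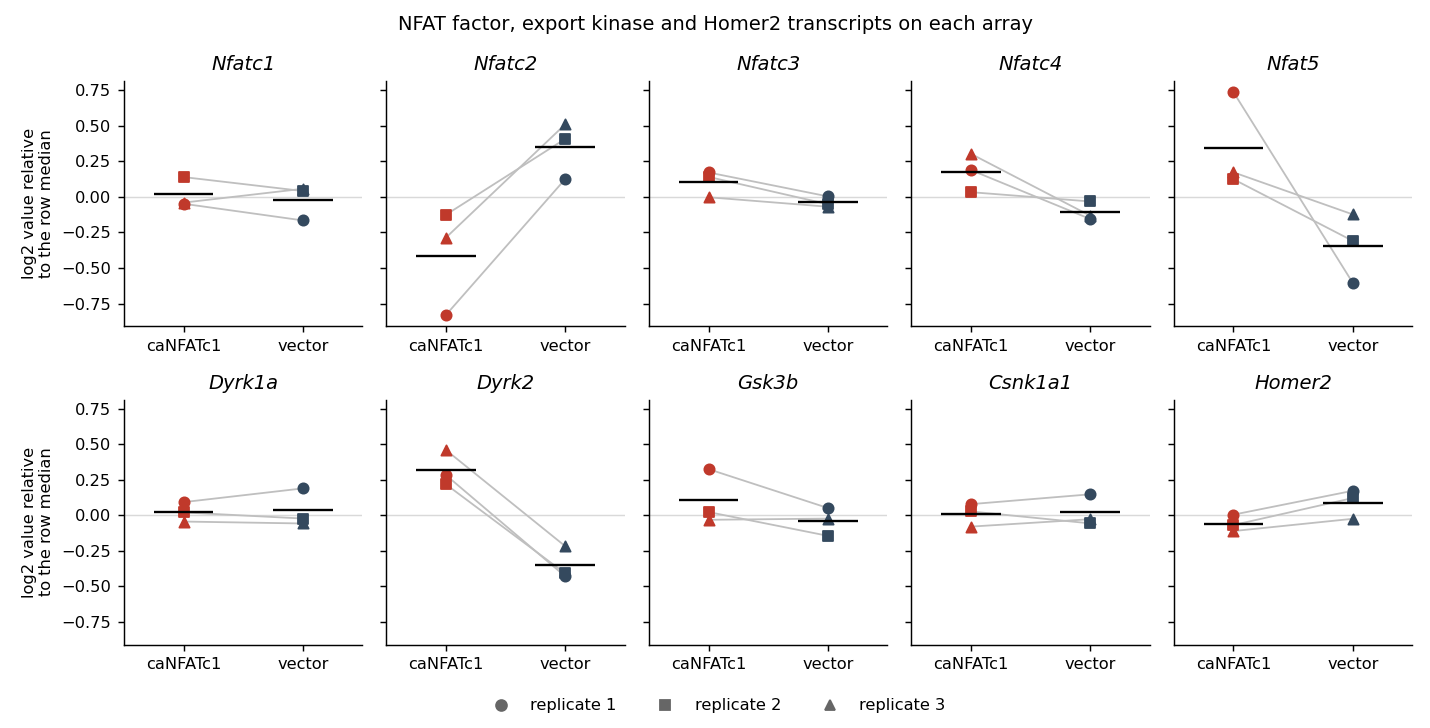
Log2 value relative to the row median (y axis) of each of the 10 genes on the 3 caNFATc1 and 3 vector control arrays (x axis). Symbols mark the replicate number, grey lines join same-numbered arrays and black bars are group means. The groups are apart for Nfatc2, Nfatc4, Nfat5 and Dyrk2, 4 of 10 members against 18.7% of all genes, and overlap for the other 6.

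Nfatc2 was the NFAT factor whose transcript fell. NFATc2 is the family member best known from T cells. Its values were -0.83, -0.13 and -0.29 in caNFATc1 replicates 1, 2 and 3, against 0.13, 0.41 and 0.51 in vector control replicates 1, 2 and 3. The highest caNFATc1 culture lay below the lowest vector control culture, and in both groups replicate 1 was the lowest. The means were -0.41 ± 0.37 in caNFATc1 cells and 0.35 ± 0.20 in vector control cells (SD, n = 3 each), a difference of -0.76 that corresponds to 0.59 times the vector control signal. The 3 same-numbered pairs differed by -0.96, -0.53 and -0.80.

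The call for Nfatc2 rested on the pairing. The SE was 0.20 without the block (adjusted p = 0.207) and 0.10 with it (adjusted p = 0.0168), a ratio of 2.12. With the block it passed in all 7 settings tried, with adjusted p between 0.0135 and 0.0403. Without the block it passed in 0 of 15. In size, 2.23% of all genes had a larger difference in either direction.

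Nfatc1 is the mouse counterpart of the transgene. Its row read -0.05, 0.14 and -0.04 in caNFATc1 cells, against -0.17, 0.04 and 0.06 in vector control cells. The groups overlapped, and the pairs differed by 0.12, 0.10 and -0.10. The difference was 0.04 ± 0.09 (SE), with an adjusted p of 0.917 unpaired and 0.847 with the block, and a 95% interval from -0.18 to 0.26. With the block the interval ran from -0.14 to 0.22. Whether this row sees the human transgene was not tested, so it does not check the labels.

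Nfatc3 and Nfatc4, the remaining calcium-regulated factors, were positive in all 3 pairs and passed neither fit. Nfatc4 read 0.19, 0.03 and 0.30 in caNFATc1 cells, against -0.16, -0.03 and -0.13 in vector control cells. The groups did not overlap, and the gap came closest in replicate 2, where the pair differed by 0.07. The difference was 0.28 ± 0.09 (adjusted p 0.253 unpaired and 0.143 with the block), with a 95% interval from 0.07 to 0.49 that is not adjusted for the number of genes. Nfatc3 read 0.17, 0.14 and -0.003 in caNFATc1 cells, against 0.003, -0.05 and -0.07 in vector control cells. Its difference was 0.14 ± 0.07 (adjusted p 0.467 unpaired and 0.296 with the block), and the groups overlapped by the lowest caNFATc1 and the highest vector control array.

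Nfat5 had a positive difference close in size to that of Dyrk2, with a wider spread. It read 0.74, 0.12 and 0.17 in caNFATc1 cells, against -0.60, -0.31 and -0.12 in vector control cells. The groups did not overlap, and replicate 1 held both the highest and the lowest array. The pairs differed by 1.34, 0.43 and 0.30. The difference was 0.69 ± 0.20, or 1.61-fold, and passed neither fit (adjusted p 0.238 unpaired and 0.119 with the block).

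For Nfat5 the block left the SE at 0.20, since replicate 1 deviated upwards in caNFATc1 cells and downwards in vector control cells, by 0.59 and -0.39 from the mean of replicates 2 and 3. Without replicate 1 of both groups the difference was 0.36 ± 0.08 with the block (adjusted p = 0.0794). Without replicate 3 of both groups it was 0.89 ± 0.19 and passed (adjusted p = 0.0406 with the block). In size, 2.88% of all genes had a larger difference than the full set gave.

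Dyrk2 was the kinase gene whose transcript rose. DYRK2 is a kinase that phosphorylates serine and threonine residues of NFAT factors, p53 and other substrates. Its values were 0.28, 0.22 and 0.46 in caNFATc1 cells, against -0.43, -0.41 and -0.22 in vector control cells. The groups did not overlap, and the pairs differed by similar amounts, 0.71, 0.63 and 0.68. The means were 0.32 ± 0.12 in caNFATc1 cells and -0.35 ± 0.12 in vector control cells (SD, n = 3 each), a difference of 0.67 or 1.59-fold.

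Dyrk2 passed with the block (SE 0.06, adjusted p = 0.00904) and not without it (SE 0.09, adjusted p = 0.0617). In the 7 settings with the block its adjusted p lay between 0.00904 and 0.0236, and all 7 passed. Without the block 1 of 15 settings passed, quantile normalization between arrays, with an adjusted p of 0.0468 and a difference of 0.63. In size, 3.09% of all genes had a larger difference.

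The other kinases showed no difference that passed. Gsk3b encodes glycogen synthase kinase 3 beta, which phosphorylates primed NFAT factors and also beta-catenin. It read 0.32, 0.02 and -0.03 in caNFATc1 cells, against 0.05, -0.14 and -0.02 in vector control cells. The groups overlapped, the pairs differed by 0.27, 0.17 and -0.01, and the difference was 0.14 ± 0.11 (adjusted p 0.69 unpaired and 0.378 with the block).

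Csnk1a1 encodes casein kinase 1 alpha, which phosphorylates the first serine-rich region of NFAT factors. It read 0.08, 0.03 and -0.08 in caNFATc1 cells, against 0.15, -0.06 and -0.03 in vector control cells. The difference was -0.01 ± 0.08 (adjusted p 0.976 unpaired and 0.955 with the block), with a 95% interval from -0.21 to 0.18, and 91.2% of all genes had a larger difference. The sign of a value this small turned in several settings.

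Dyrk1a encodes a priming kinase of NFAT factors that lies in the Down syndrome critical region in humans, as does the calcineurin inhibitor gene RCAN1. The mean of its rows read 0.09, 0.02 and -0.04 in caNFATc1 cells, against 0.19, -0.02 and -0.06 in vector control cells. The difference was -0.01 ± 0.09 (adjusted p 0.975 unpaired and 0.95 with the block), with a 95% interval from -0.22 to 0.20. Its 2 rows had opposite signs, -0.08 ± 0.09 and 0.06 ± 0.10, and neither passed over all rows. Dyrk2 and Dyrk1a thus had intervals that did not overlap with the block, 0.51 to 0.83 for Dyrk2 and -0.18 to 0.15 for Dyrk1a. The difference between the 2 genes was not tested.

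Homer2 encodes a scaffold that, like HOMER3, binds NFAT factors and competes with calcineurin in T cells. The mean of its rows read 0.0047, -0.07 and -0.11 in caNFATc1 cells, against 0.17, 0.12 and -0.02 in vector control cells. All 3 pairs were negative, by -0.17, -0.19 and -0.09, while the groups overlapped through vector control replicate 3. The difference was -0.15 ± 0.07 (adjusted p 0.49 unpaired and 0.268 with the block). Its 2 rows agreed in sign, at -0.18 ± 0.08 and -0.12 ± 0.10.

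**Figure D2:**
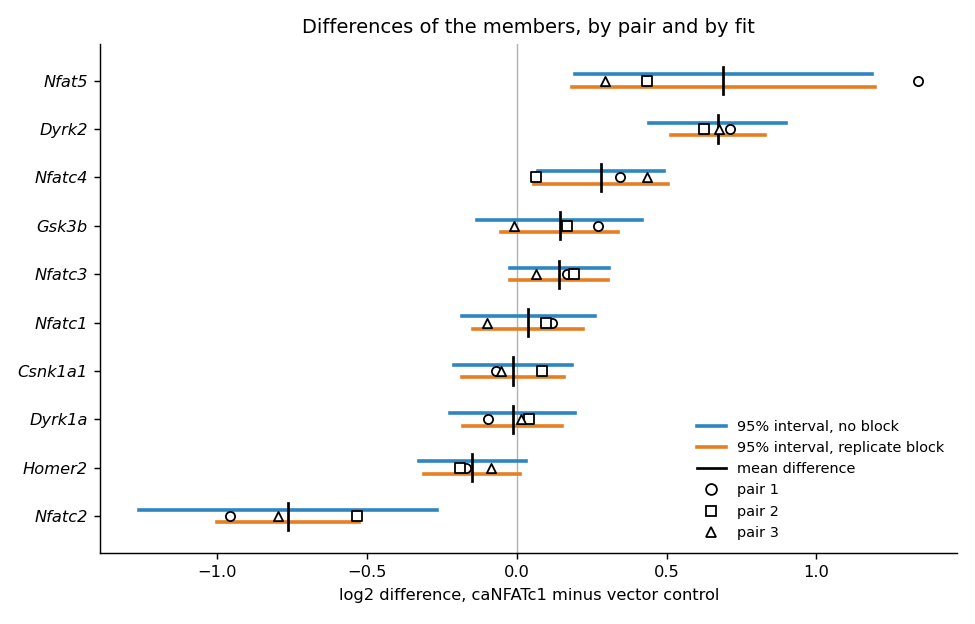
Log2 difference, caNFATc1 minus vector control (x axis), of the 10 genes ordered by size (y axis). Open symbols are the 3 same-numbered pairs, black ticks the mean difference, and coloured lines the 95% intervals without and with the replicate block. The block narrows the interval of Nfatc2 most, narrows those of Dyrk2 and Gsk3b among others, and leaves that of Nfat5 as wide.

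The members' counts were read against the shares of all genes. Limma called 0 of the 10 without the block, where 0.216% of all genes were called. At an unadjusted p under 0.05 there were 4 of 10 without the block and 4 of 10 with it, where 12.7% and 21.5% of all genes had such a p. With the block it called 1 member higher and 1 lower, where 3.73% of all genes were called higher and 2.38% lower. The groups did not overlap for 4 of the 10 members, 3 with caNFATc1 above (9.64% of all genes) and 1 with it below (9.09%), or 18.7% of all genes in either direction. All 3 pairs had the same sign for 6 of the 10, and for 42.9% of all genes. The median difference was 0.09 over the members and -0.01 over all genes, with 6 of 10 members and 47.4% of all genes positive.

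**Figure D3:**
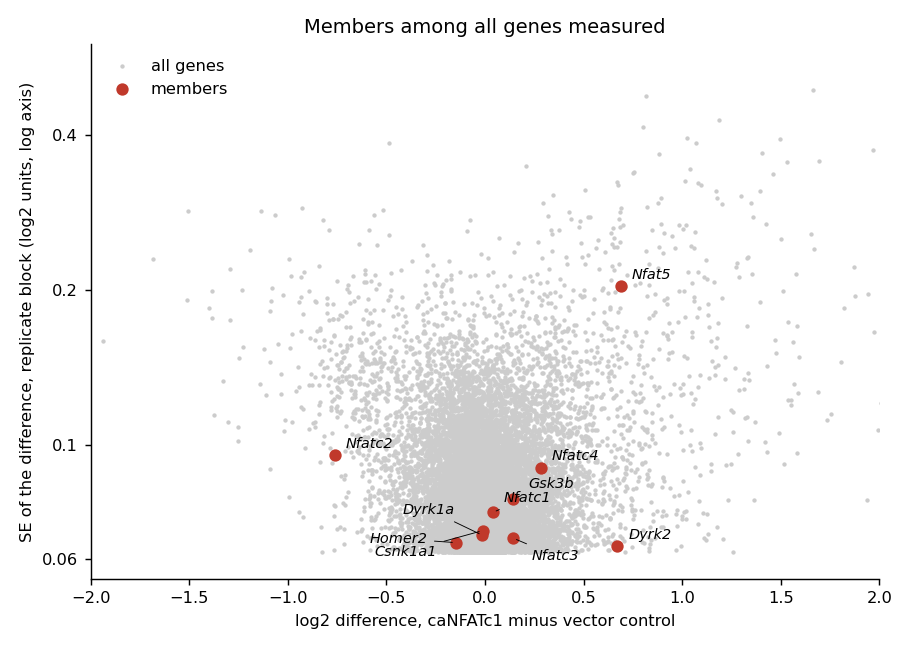
Log2 difference, caNFATc1 minus vector control (x axis), against its SE with the replicate block on a log axis (y axis), for all genes (grey) and the 10 members (red). Dyrk2, Homer2, Nfatc3, Dyrk1a and Csnk1a1 lie near the low edge of the SE range. Nfatc2 lies at 0.10 and Nfat5 at 0.20, and 33 genes lie outside the plotted range.

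The genes whose values came closest to those of the 2 called members on all 6 arrays were also sought, among 18308 other named genes, by the root mean square difference in log2 units. Closest to Nfatc2 were Rrm1, the large subunit of ribonucleotide reductase (0.07), the phosphatase gene Ptpre (0.10) and the serine hydroxymethyltransferase gene Shmt1 (0.10). Closest to Dyrk2 were Tcp11l2 (0.06), the CDC42 effector gene Cdc42ep5 (0.07) and the homeobox gene Otx1 (0.07). Genes picked for values like those of a called member share its difference by that choice, so no test of them is given. The likeness is a description of 6 arrays.

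The other genes of the pathway were counted in lists. In the background of all genes, 12.7% had an unadjusted p under 0.05 without the block and 21.5% with it, 3.73% were called higher and 2.38% lower with the block, and 47.4% were positive with a median difference of -0.01. With the block, 1 called gene in a list of 18 or 20 is near that background and says little about the list. Of 20 other kinases reported to act on NFAT factors, 2 had an unadjusted p under 0.05 without the block and 7 with it. Limma called 0 of them without the block, and 1 rose with the block. This was Dyrk1b, a kinase gene close to Dyrk1a. It read 0.42, 0.03 and 0.22 in caNFATc1 cells, against -0.03, -0.79 and -0.29 in vector control cells. Dyrk1b differed by 0.59 (SE 0.09 and adjusted p 0.028 with the block, 0.21 and 0.318 unpaired). Its call was lost with the block without replicate 2 (0.48, adjusted p = 0.0652), with all rows tested one by one (0.0543) and after quantile normalization (0.0532). Dyrk3 differed by -0.28 ± 0.06 and passed neither fit (adjusted p 0.143 unpaired and 0.0664 with the block). Over the 20 genes the median was -0.005.

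Of 18 calcineurin genes and regulators, 1 rose in both fits, the calcineurin inhibitor gene Rcan1, a known NFAT target. It rose by 3.38 ± 0.19 (adjusted p = 0.0113 unpaired, and 6.85e-04 with the block). With the block Rcan1 passed in all 7 settings, with adjusted p between 6.54e-05 and 0.00643, and without it in 9 of 15. The unpaired call was lost when caNFATc1 replicate 3 was left out (0.0802), when any of the 3 vector control arrays was left out (0.0534, 0.0965 and 0.0888 for replicates 1, 2 and 3), and when replicate 2 or 3 of both groups was left out (0.101 and 0.308). The list's median was 0.04, and 13 of 18 were positive. In this list 3 genes had an unadjusted p under 0.05 without the block and 4 with it. Of 13 scaffold and transport genes, limma called 0 in either fit, with 0 at an unadjusted p under 0.05 without the block and 3 with it. The lowest p with the block belonged to Xpo1, the export receptor that carries phosphorylated NFAT factors out of the nucleus. Xpo1 differed by -0.36 (SE 0.08 and adjusted p 0.0553 with the block, 0.15 and 0.406 unpaired). Its call was gained with the block in 1 of 7 settings. The scaffold genes Homer1 and Homer3 differed by 0.05 and 0.05.

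Of 20 nuclear partners of NFAT, 3 had an unadjusted p under 0.05 without the block and 8 with it. Limma called 0 of them without the block, and with the block 1 rose and 1 fell. Both encode AP-1 proteins of the FOS family. Fosl2 rose by 0.74 (SE 0.08 and adjusted p 0.0116 with the block, 0.15 and 0.126 unpaired). Fosl1 fell by 1.04 (SE 0.13 and adjusted p 0.0158 with the block, 0.73 and 0.653 unpaired). The Fosl1 difference was -0.42 without caNFATc1 replicate 1, -1.63 without caNFATc1 replicate 2 and -0.51 without vector control replicate 2, settings that each break a pair. With whole pairs left out it lay between -1.15 and -0.85. The list's median was -0.04.

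Of 13 gene symbols listed as targets of NFAT5 under hypertonic stress, 10 were measured. No row carried Akr1b3, Akr1b1 or Hspa1b as its only symbol. An unadjusted p under 0.05, in either direction, was found for 3 of the 10 without the block and 7 with it. Over all genes the shares were 12.7% and 21.5%. Among the 10, 1 rose past the threshold without the block and 2 with it. Of the 10, 8 were positive with a median difference of 0.30, against 47.4% of all genes positive and a median of -0.01. The 2 negative genes, Hspa1a (-0.29) and Aqp2 (-0.14), were negative in all 3 pairs and passed neither fit. Sgk1, a kinase gene induced by osmotic stress and by glucocorticoids, read 0.69, 0.53 and 0.69 in caNFATc1 cells, against -0.53, -0.83 and -0.82 in vector control cells. Its groups lay far apart relative to their spread, and the pairs differed by 1.22, 1.36 and 1.50. Sgk1 rose by 1.36 ± 0.10, or 2.57-fold (adjusted p 0.021 unpaired and 0.00382 with the block). With the block it passed in all 7 settings, with adjusted p between 0.00152 and 0.0184, and without the block in 9 of 15. The unpaired call was lost when caNFATc1 replicate 1 or 3 was left out (0.0553 and 0.0868), when vector control replicate 2 or 3 was (0.129 and 0.116), and when replicate 2 or 3 of both groups was (0.213 and 0.308).

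Slc6a6, the taurine transporter gene, read 0.77, 0.58 and 0.34 in caNFATc1 cells, against -0.34, -1.01 and -0.70 in vector control cells. It rose by 1.25, or 2.38-fold (SE 0.12 and adjusted p 0.00868 with the block, 0.19 and 0.0748 unpaired). With the block Slc6a6 passed in all 7 settings. The inositol transporter gene Slc5a3 differed by 0.49 (SE 0.19 with the block and 0.34 unpaired). Its pairs lay at -0.01, 0.44 and 1.06, and it passed neither fit. Over all genes 3.73% were called higher with the block. Sgk1 and Slc6a6 are also regulated by other signals, and the list was not tested as a set.

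**Figure D4:**
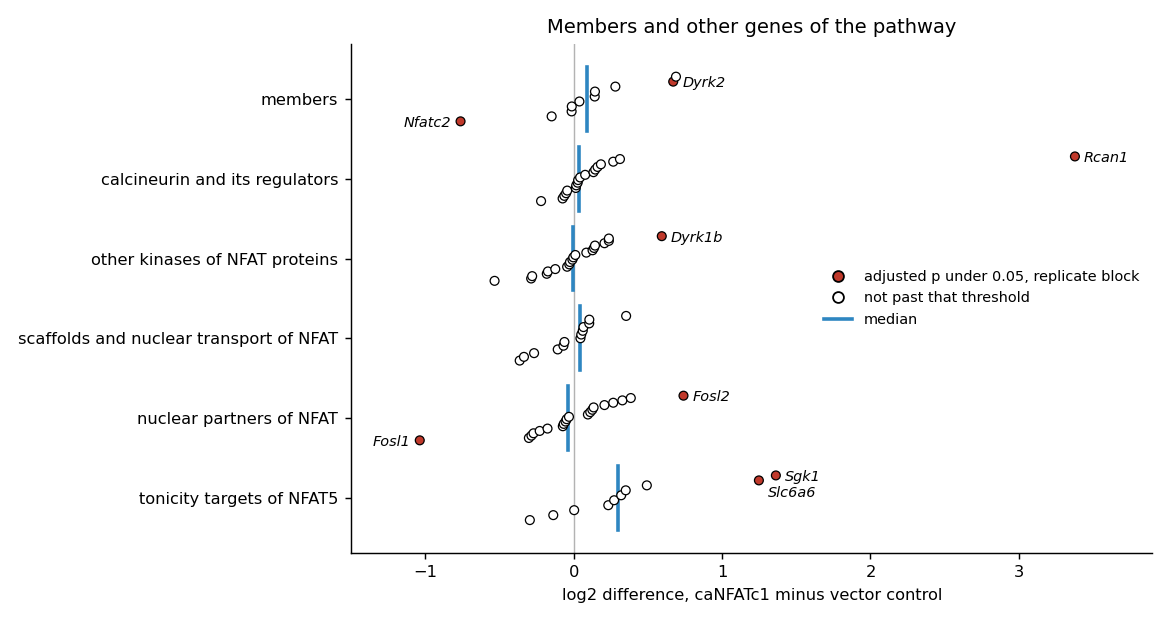
Log2 difference, caNFATc1 minus vector control (x axis), of the 10 members and of 5 lists of other pathway genes (y axis). Each point is a gene, filled points passed with the replicate block, and blue bars are medians. Rcan1 at 3.38 lies farthest to the right and Fosl1 at -1.04 farthest to the left.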

How the data were processed

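The authors deposited 1 table of 28815 rows and 6 array columns of log2 values. Per the submitters' processing notes, RMA and mm8 were used. No source used here gives the software version or the log base, and base 2 was taken from RMA. Row medians were 0 within 1e-06, so brightness is not kept, and the number of arrays limits precision. Rows were named by the platform annotation (21780 with 1 symbol, 1605 with several, 5430 unlisted) and averaged per gene. Groups came from the sample titles. Limma 3.58.1 (R 4.3.3), lmFit and eBayes, was 2-sided, and was tested on simulated data. At a simulated log2 change of 0.5 it recovered 8 of 50 changed genes without the block and 13 of 50 with it. At a change of 1.0 it recovered 34 of 50 and 33 of 50, so smaller differences can be missed. Deviations from group means correlated at 0.71, 0.61 and 0.57 for same-numbered arrays and between -0.60 and 0.18 otherwise. All 3 exceeded 0.1, and arrays of equal number were treated as pairs. The members and lists were chosen with earlier results of these data known. All members were named, with every list gene past either fit, or the one of lowest p where none passed, and the 3 genes nearest each called member. Homer1, Homer3, Dyrk3, Slc5a3, Hspa1a, Aqp2, Pdgfra, Col6a3, Krt14, Krt15, Dsp and Eif2s3y were added after their values were seen. Alternatives were single arrays and pairs left out, normalization, rows per gene and variance prior. Some listed genes were not analysed here.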

Additional observations from a re-analysis of the deposited data

How the results depend on the processing

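With the replicate block 1 member was higher and 1 lower, against 0 and 0 without it. The same counts came from the block with the robust variance prior, with all rows tested one by one, with quantile normalization and without replicate 1 or 2, and 2 higher and 1 lower came without replicate 3. The settings with all rows or quantile normalization together with the block were chosen after seeing the data. Quantile normalization without the block gave 1 member higher. Leaving out arrays or pairs thus gave 0 to 2 members higher and 0 to 1 lower. Over all genes, 41 were higher and 2 lower, against 744 and 475 with the block, 722 and 456 with the block and robust prior, 407 and 177 with the block over all rows, and 584 and 309 with the block and quantile normalization. Quantile normalization alone gave 126 and 19, and subtracting array medians gave 4 lower. With arrays or pairs left out and no block, 0 to 74 were higher and 0 to 9 lower. With the block and replicate 1, 2 or 3 left out, 509, 513 and 605 were higher and 202, 230 and 481 lower. Where limma called 0, without vector control replicate 3 or without replicate 3 of both groups, 2113 and 1580 genes had an unadjusted p under 0.05.

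Directions turned for 3 members whose differences were near 0. Without the block and with arrays or pairs left out, Csnk1a1 ranged from -0.061 to 0.051, Dyrk1a from -0.060 to 0.063 and Nfatc1 from -0.032 to 0.108. With the replicate block Csnk1a1 was 0.0161 without replicate 1 and 0.0074 without replicate 3, and Dyrk1a was 0.0283 without replicate 1. Dyrk1a was 0.0552 with its row of highest mean, taken over row-centred values and so not a mark of brightness. These adjusted p-values lay above the threshold, and the cause was not tested. The other 7 members kept their direction in all settings run. The filter on dim rows was not run because brightness is not kept.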
